A study of Sus scrofa with 4 samples.

Results

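The genes described here are the expressed non-coding RNA genes of pig granulosa cells, which line the ovarian follicle and nourish its oocyte. They are the rows of the deposited gene table whose transcript type is other than protein-coding and whose smallest count over the 4 libraries was at least 100. The rule left 358 of 20491 rows, out of 4428 non-coding rows in all. Of the 358 genes, 314 were long non-coding RNAs (lncRNAs), 34 were pseudogenes, 6 were processed pseudogenes, 2 were small nucleolar RNAs (snoRNAs) and 2 were microRNA rows. The genes were thus chosen by their transcript type and their counts in all libraries, so their level is a description, whereas the difference between the groups was not used to choose them. A floor in every library does leave out genes that lie near 0 in either group.

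Cells of the siYTHDF2 group were transfected to interfere with YTHDF2, and cells of the other group received the negative control of the transfection. Each group had 2 libraries of total RNA made with a TruSeq RNA kit. The labels give no siRNA sequence, age or breed. They also do not say that the libraries of a group came from separate cultures or animals, and the p-values therefore reflect library-to-library spread, part or all of which may be technical. The series concerns pig follicle granulosa cells according to the cell type label, although the protocol text speaks of another tissue, the retina.

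YTHDF2 is a cytoplasmic reader of N6-methyladenosine (m6A), a methyl mark on adenosine in mRNA and lncRNA, and it brings deadenylases to the RNAs it binds so that they decay. LncRNAs are transcribed and often spliced and polyadenylated like mRNA but encode no known protein, and many remain in the nucleus, where YTHDF2 is scarce. SnoRNAs guide the modification of ribosomal RNA and are in mammals mostly processed from introns of a host transcript, and microRNAs are cut from hairpin precursors and guide Argonaute proteins to mRNA. A pseudogene row marks a locus that the annotation holds to be a gene copy or a gene model with a broken reading frame.

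The libraries held 47209177 to 54841851 counts in all. YTHDF2 had 1122 and 1279 counts in the siYTHDF2 libraries, against 3660 and 3356 counts in the control libraries. It was lower in both siYTHDF2 libraries, by -1.49 on the log2 scale (SE 0.09), at an adjusted p of 1.49e-05 (edgeR's quasi-likelihood test with Benjamini-Hochberg adjustment, the test behind every adjusted p given here). The summed level of 15 granulosa markers was 2991 and 3097 CPM (counts after scaling each library to the same depth) in the siYTHDF2 libraries and 3236 and 3083 CPM in the control libraries. Most of that sum was the gap junction gene GJA1, with a mean of 2176 CPM with siYTHDF2 and 2451 CPM in the control, which did not pass the test. Of the 14 granulosa markers tested 1 was higher and 2 were lower: SERPINE2, a protease inhibitor, had a log2 fold change of 0.98 (adjusted p = 2.29e-05), CYP11A1, the first enzyme of steroid synthesis, had -1.24 (adjusted p = 0.000316), and INHBB, an inhibin and activin subunit, had -0.69 (adjusted p = 0.00213). FSHR, the receptor of follicle-stimulating hormone, had 484 and 622 counts with siYTHDF2 and 607 and 557 in the control, and CYP19A1, the aromatase, had 0 and 6 counts with siYTHDF2 and 0 and 11 in the control. Stroma and theca markers summed to 13319 and 12993 CPM in the siYTHDF2 libraries and 23048 and 23729 CPM in the control libraries, and 1 of the 14 tested markers was higher and 8 were lower (median log2 fold change -0.66). The leukocyte list summed to 6.81 and 6.18 CPM with siYTHDF2 and 7.99 and 8.95 CPM in the control, and PTPRC, the common leukocyte antigen, had 0 and 4 counts with siYTHDF2 and 0 and 7 in the control. The retina list summed to 0.294 and 0.236 CPM with siYTHDF2 and to 0.399 and 0.814 CPM in the control. In bulk RNA, fewer cells of a type and less RNA per cell cannot be told apart, and the part of these markers in the results below was not tested.

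Of the 358 non-coding genes, 25 rose and 48 fell with siYTHDF2 at the threshold of 0.05 on the adjusted p, and 285 did not pass the test. Over all 15552 genes tested, 9.05% were higher, 10.6% were lower and 19.6% were called in either direction. Among the non-coding genes 6.98% were higher, 13.4% were lower and 20.4% were called, so that the share called in either direction was close to that of all genes. Of protein-coding genes with the same count floor, 11.9% were higher, 13.3% were lower and 25.2% were called. Their median count was 1768, against 403 for the non-coding genes. The median log2 fold change of the non-coding genes was -0.02, against 0.0007 over all genes tested, and their values ran between -1.57 and 2.45. By size, 2 of the non-coding genes were higher and 9 lower by at least 2-fold, against 0.797% and 2.11% of all genes tested. The groups did not overlap in 96 genes (26.8%) with siYTHDF2 above the control and in 120 (33.5%) with siYTHDF2 below it, called or not, against 30.1% and 30% of all genes tested. In the remaining 142 genes the libraries of the groups overlapped. All 25 higher and 48 lower non-coding genes had groups that did not overlap. Over all genes tested the same held for all 1408 higher and 1644 lower genes. Where this is said of a called gene below, it adds no support to the call.

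Limma, one alternative, differs from the main fit in test, gene filter, scaling and unit. Over all genes tested it called 460 of 11107 higher, against 1408 of 15552 in the main fit. The number of higher non-coding genes was also smaller in some alternatives, and the cause was not tested. It was 12 without control replicate 1, 10 without siYTHDF2 replicate 1 and 10 of the 264 genes tested in limma on log2(FPKM + 1), where FPKM is the count scaled to transcript length and library size. The lower genes numbered 39 without control replicate 1, 42 without siYTHDF2 replicate 1 and 46 in limma. Each of the 73 called genes kept its sign in every one of the 10 alternatives that tested it, and 27 of them, 4 higher and 23 lower, were tested and passed the threshold in all 10.

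**Figure D1:**
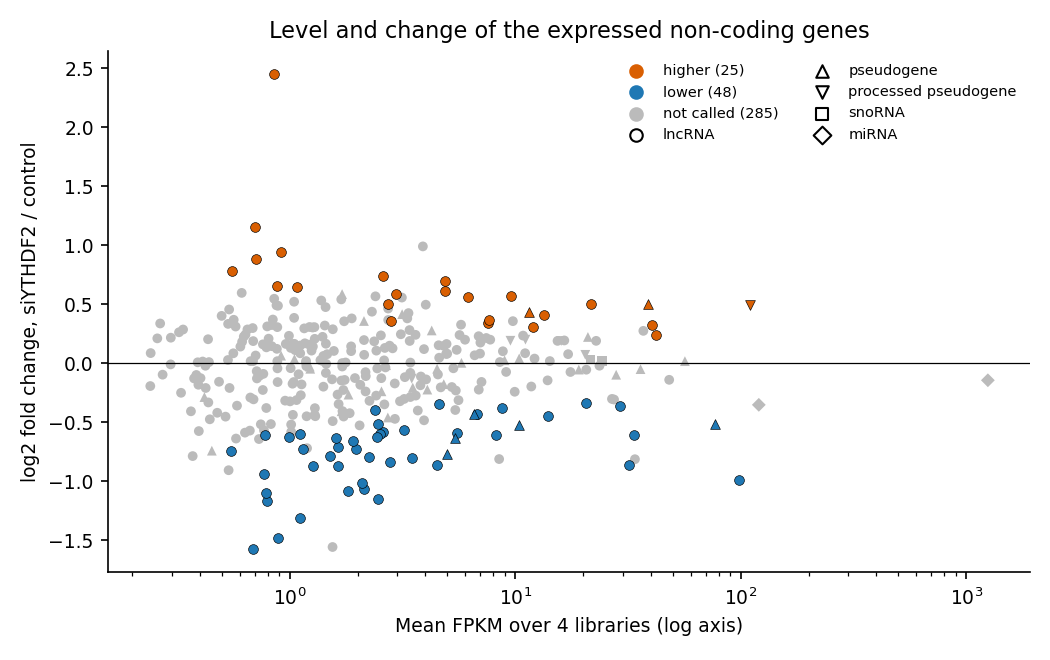
Mean level in FPKM (x axis, log scale) against the log2 fold change of siYTHDF2 over control (y axis) for the 358 non-coding genes, with called genes in colour. Each point is 1 gene, and the called genes with the largest changes, at 2.45 and -1.57, had a mean of under 1 FPKM.

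Most of these genes were expressed at a low level. Their median was 1.81 FPKM, with a range of 0.241 to 1248 FPKM, against a median of 7.73 FPKM for the 10871 protein-coding genes with the same count floor. All 358 together took 0.741% and 0.756% of the counts of the siYTHDF2 libraries and 0.843% and 0.811% of those of the control libraries. Both siYTHDF2 shares lay below both control shares. The 10 most abundant genes held 34.8% and 36.2% of these counts with siYTHDF2 and 41.5% and 39.4% in the control.

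The share of genes called depended on depth. Among non-coding genes with a mean count of 100 to 300, 12 of 145 were called (8.28%), against 10.1% of protein-coding genes in that range. It was 25.4% against 18.7% at 300 to 1000 counts, 28.6% against 24.8% at 1000 to 3000 counts, and 47.8% (11 of 23) against 34% at 3000 counts or more. Without regard to depth, the non-coding genes were also the more variable set. The median gene differed by 0.167 on the log2 scale between the siYTHDF2 libraries and by 0.188 between the control libraries, against 0.104 and 0.111 for protein-coding genes with the same floor. Within a depth range, the median SE of the log2 fold change was closer. It was 0.241 against 0.236 at 100 to 300 counts and 0.162 against 0.148 at 300 to 1000 counts. At 1000 to 3000 counts it was 0.107 against 0.102, and at 3000 counts or more 0.0781 against 0.0728.

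The most abundant lncRNA was lower with siYTHDF2. ENSSSCG00000060056 lies on the plus strand of chromosome 2 at 6808245 to 6811483, 11484 bases from FRMD8, which encodes a FERM domain protein. It had 12436 and 13423 counts in the siYTHDF2 libraries, against 26698 and 26904 in the control libraries. In CPM this was 252 ± 12.6 with siYTHDF2 and 502 ± 6.42 in the control (SD, n = 2 each). Both siYTHDF2 libraries lay at about the same level, well below both control libraries, and the log2 fold change was -0.99 (SE 0.07, adjusted p = 2.34e-05).

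The minus strand of the same place carries ENSSSCG00000056754, at 6804687 to 6811446, with 10025 and 11768 counts with siYTHDF2 and 15720 and 18860 counts in the control. It was lower as well (log2 fold change -0.61, SE 0.08, adjusted p = 0.00103). The intervals overlap by 3202 bases, which is nearly all of ENSSSCG00000060056. Because the sources used here do not say whether counting used strand, reads of the pair cannot be told apart. The level and change of either row alone are uncertain for that reason. Their summed counts were 22461 and 25191 with siYTHDF2 and 42418 and 45764 in the control, a log2 ratio of -0.83 after scaling.

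Another abundant lncRNA of that region had the opposite sign. ENSSSCG00000048856, on the minus strand at 6751519 to 6757180, had 14089 and 15214 counts in the siYTHDF2 libraries, against 12984 and 12913 in the control libraries. The groups did not overlap, but the difference was small (log2 fold change 0.24, SE 0.07, adjusted p = 0.0341), and its call was lost in limma, under the replicate block (a fit with the replicate number as a term), without either control replicate and without siYTHDF2 replicate 1. ENSSSCG00000057738, which starts at 6797660 on the plus strand, had 499 and 710 counts with siYTHDF2 and 780 and 929 in the control and missed the threshold (log2 fold change -0.45, adjusted p = 0.058). The protein-coding gene FRMD8 had 1013 and 1231 counts with siYTHDF2 and 1157 and 1231 in the control (log2 fold change -0.04, adjusted p = 0.856). The difference between neighbouring genes was not itself tested.

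**Figure D2:**
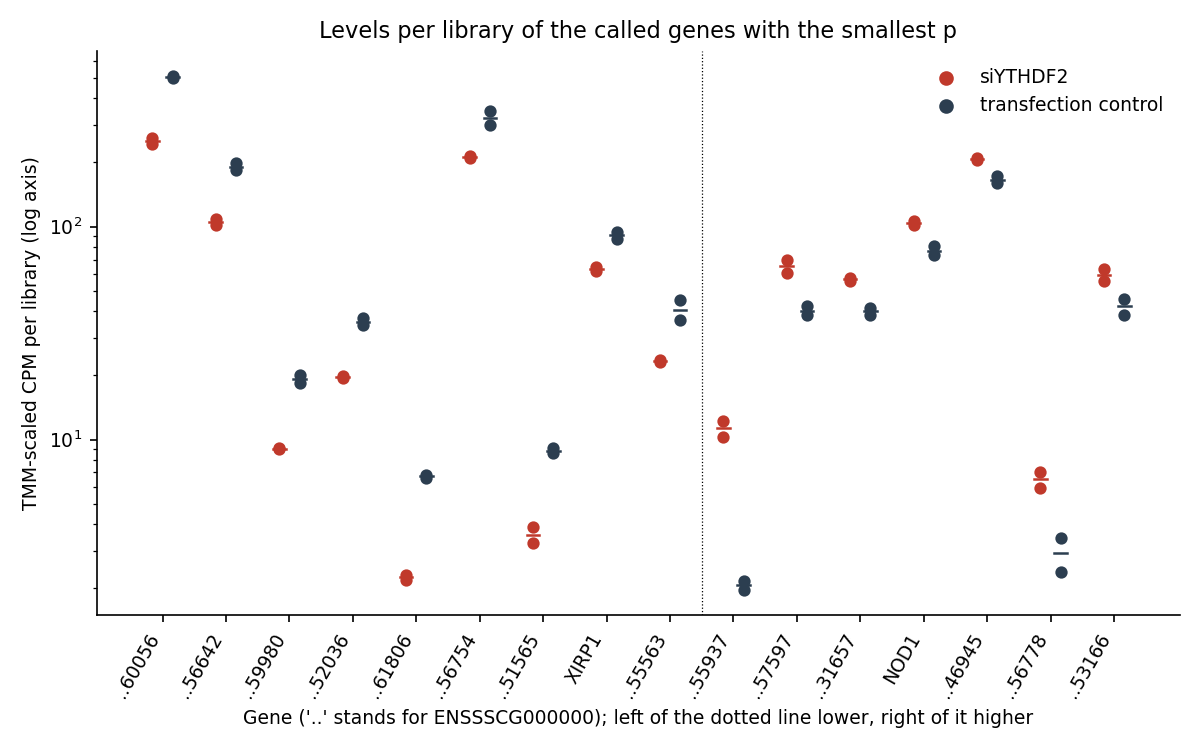
Scaled CPM (y axis, log scale) of called genes with the smallest p in each library, with siYTHDF2 left of control and lower genes left of higher genes. Points are libraries and short lines are group means; in ENSSSCG00000060056 both siYTHDF2 points lie near 252 CPM and both control points near 502 CPM.

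Other lncRNAs that fell stood beside protein-coding genes that fell too. ENSSSCG00000056642, on the plus strand of chromosome 1 at 169324516 to 169328540, begins 539 bases beyond the 3′ end of THSD4, a thrombospondin-type protein of microfibrils, on the same strand. It had 4848 and 5978 counts with siYTHDF2, against 10473 and 9931 in the control. Both siYTHDF2 values were below both control values (log2 fold change -0.86, SE 0.07, adjusted p = 7.34e-05). THSD4 itself had 3515 and 4567 counts with siYTHDF2 and 8722 and 6470 in the control, with a log2 fold change of -0.86 (adjusted p = 0.00392), a call lost without siYTHDF2 replicate 1.

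The strongest fall among all 358 genes was that of ENSSSCG00000061806, on the minus strand of chromosome 18 at 42764386 to 42769920, 1534 bases beyond the 3′ end of MTURN. MTURN, named maturin, is a regulator of neural progenitor differentiation in frogs. The lncRNA had 104 and 128 counts with siYTHDF2 and 359 and 357 in the control (log2 fold change -1.57, SE 0.21, adjusted p = 0.000971), and MTURN had a log2 fold change of -1.33 (adjusted p = 1.56e-05). The groups of the lncRNA stood far apart although its counts were low. ENSSSCG00000047986 on chromosome 5 at 91625256 to 91655840 had 230 and 300 counts with siYTHDF2 and 470 and 644 in the control (log2 fold change -1.02, adjusted p = 0.00582). Its nearest protein-coding gene, 26818 bases away, is DCN, the matrix proteoglycan decorin and one of the stroma markers, with a log2 fold change of -1.38 (adjusted p = 0.000138). ENSSSCG00000059956 on chromosome 16 at 73329543 to 73372455 had 146 and 249 counts with siYTHDF2 and 527 and 372 in the control (log2 fold change -1.15, adjusted p = 0.0123). It lies 562 bases from the 3′ end of the axon guidance gene SEMA5A, which had a log2 fold change of -1.23 (adjusted p = 0.00335), and the lncRNA's call was lost without control replicate 1.

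Several lncRNAs fell beside a protein-coding gene that did not pass the test. ENSSSCG00000051565, on chromosome 13 at 140666132 to 140671017, starts 171 bases from the phospholipase gene PLA1A on the opposite strand and had 155 and 215 counts with siYTHDF2 and 480 and 467 in the control (log2 fold change -1.31, adjusted p = 0.00141; PLA1A -0.26, adjusted p = 0.831). It overlaps ENSSSCG00000056686 on the opposite strand, which had 428 and 601 counts with siYTHDF2 and 575 and 413 in the control, and the sums of both rows were 583 and 816 with siYTHDF2 and 1055 and 880 in the control, a log2 ratio of -0.43 in place of -1.31. ENSSSCG00000041180, on chromosome 5 at 93247178 to 93302165, starts 810 bases from DUSP6, a phosphatase of ERK. It had 221 and 326 counts with siYTHDF2 and 522 and 560 in the control, and its log2 fold change was -0.94 (adjusted p = 0.00607), against 0.02 for DUSP6 (adjusted p = 0.935). ENSSSCG00000039279, on chromosome 6 at 107279316 to 107282632, starts 217 bases from GATA6, a transcription factor of granulosa and theca cells, with 151 and 170 counts with siYTHDF2 and 277 and 336 in the control (log2 fold change -0.88, adjusted p = 0.0183; GATA6 -0.20, adjusted p = 0.0928). In each of these lncRNAs both siYTHDF2 libraries lay below both control libraries, and the call of ENSSSCG00000039279 was lost without control replicate 2.

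Further lncRNAs with a small adjusted p and a lower level had no called neighbour. ENSSSCG00000052036, on chromosome 13 at 137628116 to 137633288, had 941 and 1069 counts with siYTHDF2 and 1950 and 1859 in the control, and its log2 fold change was -0.87 (adjusted p = 0.000523). ENSSSCG00000046947, on chromosome 1 at 269575594 to 269610029, lies 120284 bases from the nearest protein-coding gene, IER5L. It had 106 and 175 counts with siYTHDF2 and 431 and 377 in the control (log2 fold change -1.48, SE 0.23, adjusted p = 0.00228). ENSSSCG00000041715, on chromosome 3 at 40945963 to 40984105, had 181 and 258 counts with siYTHDF2 and 457 and 564 in the control (log2 fold change -1.17, adjusted p = 0.00292). These 3 genes kept their call in every alternative.

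The largest rise was also that of a lncRNA. ENSSSCG00000055937, on the minus strand of chromosome 17 at 11505018 to 11511493, had 584 and 569 counts in the siYTHDF2 libraries, against 104 and 117 in the control libraries. Its CPM was 11.3 ± 1.38 with siYTHDF2 and 2.07 ± 0.135 in the control (SD, n = 2 each), and the groups stood far apart (log2 fold change 2.45, SE 0.19, adjusted p = 5.68e-05). The nearest protein-coding gene is SLC20A2, a sodium-dependent phosphate transporter on the same strand, which starts 18437 bases away. SLC20A2 had 10569 and 11082 counts with siYTHDF2 and 4501 and 4671 in the control, and was higher by 1.30 on the log2 scale (adjusted p = 1.09e-05). SMIM19, on the other side of the lncRNA, had 1144 and 1158 counts with siYTHDF2 and 1304 and 1302 in the control and did not pass (log2 fold change -0.12, adjusted p = 0.516).

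Apart from that lncRNA, only ENSSSCG00000056778 among the 25 higher genes changed by at least 2-fold. This lncRNA, on chromosome 1 at 141995328 to 142001281, had 282 and 390 counts with siYTHDF2 and 126 and 187 in the control (log2 fold change 1.15, SE 0.24, adjusted p = 0.00987). It lies 325 bases from the 3′ end of UBE3A, a ubiquitin ligase, on the opposite strand, and UBE3A was higher by 0.27 (adjusted p = 0.0221). The UBE3A call was lost in limma, under the replicate block, without control replicate 2 and without either siYTHDF2 replicate. ENSSSCG00000057597, on chromosome 14 at 12886026 to 12895029, had 2881 and 3846 counts with siYTHDF2 and 2222 and 2073 in the control (log2 fold change 0.69, SE 0.10, adjusted p = 0.00127), while KIF13B, a kinesin gene 2291 bases away, had -0.09 (adjusted p = 0.57). ENSSSCG00000046945, on chromosome 10 at 13439771 to 13443929, had 9781 and 11589 counts with siYTHDF2 and 9062 and 8662 in the control (log2 fold change 0.32, adjusted p = 0.00962), a call lost in limma. In all 3 lncRNAs both siYTHDF2 libraries exceeded both control libraries, as in every higher gene.

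Beside called genes, lncRNAs near KCNA3, FANCF and BNIP3 were higher together with them. ENSSSCG00000060097, on chromosome 4 at 109497678 to 109509748, begins 562 bases beyond the potassium channel gene KCNA3 on the same strand and had 400 and 367 counts with siYTHDF2 and 224 and 258 in the control (log2 fold change 0.74, KCNA3 1.00). ENSSSCG00000059615, on chromosome 2 at 36885868 to 36891024, begins 12 bases beyond FANCF, a DNA crosslink repair gene, and had 286 and 297 counts with siYTHDF2 and 138 and 192 in the control (log2 fold change 0.88, FANCF 0.66). ENSSSCG00000027988, on chromosome 14 at 140335848 to 140357762, lies 4365 bases from BNIP3, a mitophagy receptor, and had 624 and 645 counts with siYTHDF2 and 406 and 461 in the control (log2 fold change 0.61, BNIP3 0.49). The groups did not overlap in these 3 lncRNAs, and each lost its call without control replicate 1 and without siYTHDF2 replicate 1. The FANCF call was lost in DESeq2, under the replicate block and in each of the 4 fits that left out a library, and that of BNIP3 without siYTHDF2 replicate 1.

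The place of a non-coding gene beside its nearest protein-coding gene was then described for all 358. Of these, 162 lay within 5000 bases on the 3′ side of that gene, 100 of them on its strand. A further 81 lay on the 5′ side, 61 of them on the opposite strand, 107 were over 5000 bases away, and 8 overlapped it (6 on the opposite strand and 2 on the same strand). On the 3′ side 14 were higher and 26 lower (24.7% called), on the 5′ side 4 were higher and 6 lower (12.3%), and at over 5000 bases 6 were higher and 16 lower (20.6%). Of all 358 genes 20.4% were called. Over all genes tested 9.05% were higher, 10.6% were lower and 19.6% were called. The 5′ share rests on 10 called genes, and the difference between places was not tested.

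The log2 fold changes of the non-coding gene and of its neighbour correlated across genes with a Pearson r of 0.48 and a Spearman rho of 0.52 on the 3′ side (161 pairs). On the 5′ side these were 0.02 and 0.05 (81 pairs), and at over 5000 bases 0.18 and 0.11 (102 pairs). On the 3′ side r was 0.50 for the same strand (100 pairs) and 0.47 for the opposite strand (61 pairs). All points share the same 4 libraries, some share a neighbour, and the genes are not independent replicates, so no test was made and the difference between the r values was not tested. Whether reads beyond the annotated end of the neighbour were counted in a non-coding gene there was not tested.

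In 19 cases the non-coding gene and its neighbour were both called, 15 in the same direction and 4 in opposite directions. On the 3′ side it was 12 and 1 of 13. The 4 opposite cases were ENSSSCG00000056261 (0.65, with the extracellular matrix gene SPON1 at -0.74), ENSSSCG00000043175 (0.50, with the amino acid transporter subunit SLC3A2 at -0.40), ENSSSCG00000058397 (-0.64, with OGFRL1 at 0.39) and ENSSSCG00000055335 (-0.61, with ZNF800 at 0.42). Each of these 4 lncRNA calls was lost without at least 2 of the 4 libraries in turn. They were lost without control replicate 2 and without either siYTHDF2 replicate in ENSSSCG00000056261, without control replicate 1 and siYTHDF2 replicate 1 in ENSSSCG00000043175, and without each single library in the other pair. In addition, ENSSSCG00000056261 lost its call in limma, ENSSSCG00000058397 in DESeq2, and ENSSSCG00000055335 in DESeq2, under total count scaling and under the replicate block. The OGFRL1 call was lost without control replicate 1 and without siYTHDF2 replicate 1, and that of ZNF800 without control replicate 2, and both were lost in limma. In 52 of the 73 called non-coding genes the neighbour was not called. By level, 113 of the 358 exceeded their neighbour in FPKM, and the medians were 1.81 FPKM for the non-coding genes and 5.51 FPKM for the neighbours.

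**Figure D3:**
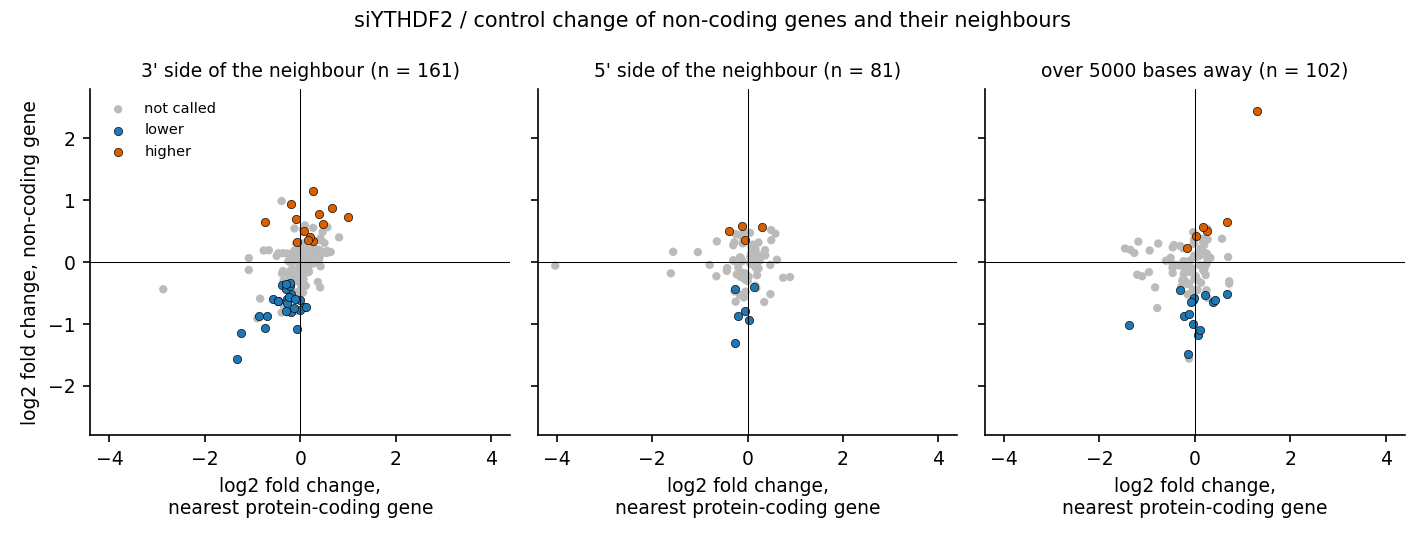
Log2 fold change (siYTHDF2 over control) of the nearest protein-coding gene and of the non-coding gene, in separate panels by place. Each point is 1 pair, and the points follow a slope on the 3′ side (r 0.48) but not on the 5′ side (r 0.02).

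Neighbouring rows can also share reads by overlap. Of the 358 genes, 118 overlapped another row of the table and 240 overlapped none, and 17 pairs of overlapping rows had both partners in the set, 16 of them on opposite strands. In 24 of 24 called genes that overlapped a row, the summed counts of the overlapping rows kept groups that did not overlap, with the same direction. Each sum includes the gene's own counts, and every called gene already had groups that did not overlap. Some partner rows added few counts, and pairs with both partners called enter once per partner. The kept direction was thus largely fixed beforehand and does not show that shared reads were few. The log2 ratio of the sums was smaller than the gene's own log2 fold change by over 1.5 times in 4 of the 24, which were ENSSSCG00000059980, ENSSSCG00000051565, ENSSSCG00000061091 and ENSSSCG00000053166. In 3 of the 17 pairs both partners were called, and each time both were lower. Apart from the chromosome 2 pair described above, these were ENSSSCG00000052641 and the pseudogene row ENSSSCG00000002274 near ZBTB1 on chromosome 7, at -0.61 and -0.77 on the log2 scale, and ENSSSCG00000061091 and ENSSSCG00000062978 near MBNL3 on chromosome X, at -0.80 and -0.35. ENSSSCG00000052641 had 868 and 1039 counts with siYTHDF2 and 1606 and 1404 in the control, and ENSSSCG00000061091 had 471 and 657 counts with siYTHDF2 and 1144 and 877 in the control. The sums of the chromosome 7 pair were 1288 and 1470 with siYTHDF2 and 2200 and 2325 in the control, a log2 ratio of -0.66, and those of the chromosome X pair were 2436 and 2744 with siYTHDF2 and 3544 and 3862 in the control, a log2 ratio of -0.46. The calls of the partners ENSSSCG00000002274 and ENSSSCG00000062978 were lost without control replicate 2, and that of ENSSSCG00000062978 also without siYTHDF2 replicate 2, under total count scaling, in limma and under the replicate block.

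A pair on the 3′ side of SOX4, a transcription factor gene, was the most uneven between libraries. ENSSSCG00000054652, on the plus strand of chromosome 7 at 16892893 to 16895488, had 1894 and 5922 counts with siYTHDF2 and 7689 and 6126 in the control. ENSSSCG00000060833, on the minus strand at 16893538 to 16899444, had 3520 and 158 counts with siYTHDF2 and 352 and 1720 in the control. ENSSSCG00000054652 differed by 1.43 on the log2 scale between the siYTHDF2 libraries and by 0.37 between the control libraries, with a log2 fold change of -0.81. ENSSSCG00000060833 differed by 4.69 and 2.25 between libraries of these groups, with a log2 fold change of 0.99. Neither row passed the test (adjusted p = 0.55 and 0.827). Their sums were 5414 and 6080 with siYTHDF2 and 8041 and 7846 in the control, so the sum was far steadier than its parts and lay below the control in both siYTHDF2 libraries (log2 ratio -0.41).

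Another pair lies beyond AGO3, an Argonaute gene, on chromosome 6. ENSSSCG00000059980, on the plus strand at 92219172 to 92225802, had 433 and 498 counts with siYTHDF2 and 968 and 1080 in the control (log2 fold change -1.08, SE 0.12, adjusted p = 0.000494). Within it, ENSSSCG00000054873 on the minus strand, which is under the count floor, had 278 and 356 counts with siYTHDF2 and was listed at 0 in both control libraries. The sums of the pair were 711 and 854 with siYTHDF2 and 968 and 1080 in the control, a log2 ratio of -0.33 in place of -1.08. The direction remained and the size was smaller, and AGO3 itself had a log2 fold change of -0.08 (adjusted p = 0.595).

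**Figure D4:**
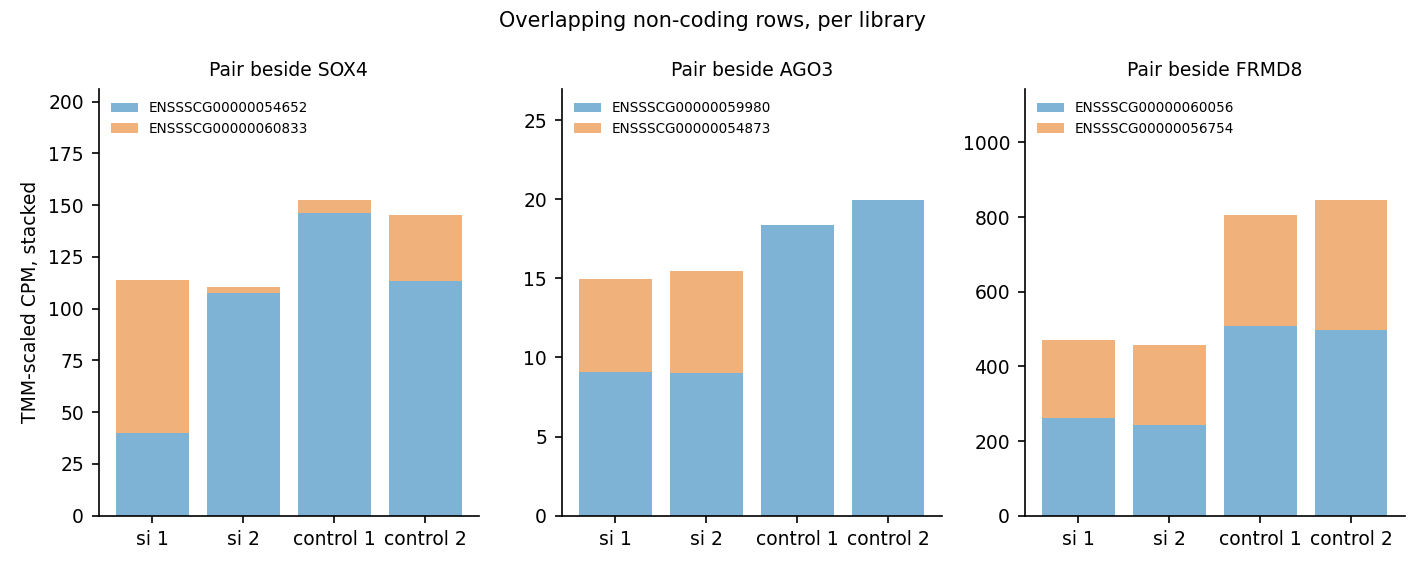
Scaled CPM (y axis, the rows of a pair stacked) of the overlapping lncRNA pairs near SOX4, near AGO3 and on chromosome 2 in each library, with siYTHDF2 left of control. The parts of the SOX4 pair differ widely between libraries of a group, while the sums of that pair lie at 114 and 110 CPM with siYTHDF2 and 153 and 145 CPM in the control.

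Not every row of this set is non-coding by other annotation. Symbols were found for 17 of the 358 genes, 13 in the deposited table and 4 in the reference table of gene names, and 341 carry no symbol. Some of these 341 still carry a gene description. ENSSSCG00000001057 is described as mitochondrial calcium uniporter regulator 1, ENSSSCG00000017515 as TBK1 binding protein 1 and ENSSSCG00000030358 as sterile alpha and TIR motif containing 1. ENSSSCG00000032549 is described as G protein subunit alpha 12 and ENSSSCG00000033465 as HIVEP zinc finger 3. Of the 17 symbols, 15 are protein-coding genes in RefSeq's pig annotation, and the other 2 had no match there. The clearest case is FOXL2, the transcription factor that maintains granulosa cell identity, which the deposited table types as a pseudogene. FOXL2 had 278 and 240 counts with siYTHDF2 and 290 and 345 in the control, and did not pass the test (log2 fold change -0.22, SE 0.21, adjusted p = 0.516).

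Of these 17 genes, 1 was higher and 3 were lower (23.5% called, against 19.6% of all genes tested). NOD1, an intracellular sensor of bacterial peptidoglycan, had 4850 and 5832 counts with siYTHDF2 and 3854 and 4372 in the control and was higher (log2 fold change 0.43, SE 0.08, adjusted p = 0.0046), a call lost in limma. XIRP1, an actin-binding protein of striated muscle, had 2951 and 3548 counts with siYTHDF2 and 4972 and 4727 in the control and was lower (-0.53, SE 0.08, adjusted p = 0.00153). GPRIN3, typed as lncRNA, had 5197 and 5910 counts with siYTHDF2 and 8316 and 7446 in the control (-0.45, SE 0.08, adjusted p = 0.0042). In these 3 genes the groups did not overlap. BDKRB1, the bradykinin B1 receptor, had 238 and 310 counts with siYTHDF2 and 418 and 464 in the control (-0.64, SE 0.17, adjusted p = 0.0292), and its call was lost in DESeq2, without either control replicate and without siYTHDF2 replicate 1. FAT1, an atypical cadherin, had the highest counts of those not called, with 20955 and 28150 counts with siYTHDF2 and 29515 and 24734 in the control. Its groups overlapped (log2 fold change -0.10, adjusted p = 0.569), and the antiproliferative gene TOB1 had 0.22 (adjusted p = 0.214). The other 10 genes with a symbol, which include PLRG1, HPS5, HPS6, TSHZ2, MANSC1, ZBED4, AHDC1 and NAP1L5, did not pass the test either.

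Among pseudogene rows without a symbol, ENSSSCG00000012832 on chromosome X at 486402 to 513947 was the most abundant. It had 32113 and 42227 counts in the siYTHDF2 libraries, against 59615 and 50406 in the control libraries (log2 fold change -0.52, SE 0.10, adjusted p = 0.00644). ENSSSCG00000031657, on chromosome 2 at 59531154 to 59532196, had 2655 and 3173 counts with siYTHDF2 and 2032 and 2234 in the control and was higher (0.50, SE 0.08, adjusted p = 0.00317). The processed pseudogene ENSSSCG00000053166, on chromosome 15 at 17576905 to 17577288, had 3018 and 3059 counts with siYTHDF2 and 2028 and 2479 in the control and was higher too (0.49, SE 0.11, adjusted p = 0.0119). None of these genes had overlapping groups. ENSSSCG00000053166 lies inside MGAT5, a glycosyltransferase gene on the opposite strand with a log2 fold change of -0.35 (adjusted p = 0.176), and a processed pseudogene can share reads with its parent gene, so its count is uncertain. The sums of the pair were 3620 and 3893 with siYTHDF2 and 3109 and 3287 in the control, a log2 ratio of 0.29 in place of 0.49.

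Of the short RNA classes, 2 snoRNA and 2 microRNA rows reached the floor, and none of the 4 passed edgeR's or DESeq2's test. SNORD24, a box C/D snoRNA on chromosome 9 at 116147907 to 116147988, had 112 and 107 counts with siYTHDF2 and 107 and 117 in the control (log2 fold change 0.03, adjusted p = 0.96). The snoRNA row ENSSSCG00000018225 on chromosome 9 at 26158697 to 26158827 had 147 and 245 counts with siYTHDF2 and 198 and 200 in the control (0.02, adjusted p = 0.976). Their groups overlapped. The row of ssc-mir-10390, on chromosome 9 at 4700784 to 4700878, held the highest level of all 358 genes, a mean of 1248 FPKM, with 5859 and 7917 counts with siYTHDF2 and 7403 and 8347 in the control (-0.15, adjusted p = 0.285). The microRNA row ENSSSCG00000035742, on chromosome 12 at 14578144 to 14578210, lies inside DDX5, an RNA helicase gene on the same strand, and had 365 and 501 counts with siYTHDF2 and 530 and 614 in the control (-0.35, adjusted p = 0.15). It was the only one of the 4 to pass in limma, as lower. Because FPKM divides by length, 1 read weighs far more in such short rows than in a lncRNA.

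More possible snoRNA host transcripts than snoRNAs reached the count floor. That floor was on counts, not on level per length. The median interval was 105 bases over all snoRNA rows and 5184.5 bases over the lncRNAs of the set. Of the 358 genes, 14 held at least 1 snoRNA or scaRNA row (a scaRNA is the Cajal body counterpart) on their own strand, 35 such rows in all. Of the 14, 2 were higher, none was lower and 12 were not called, against 9.05% higher and 10.6% lower over all genes tested. Of the 14, 11 had a positive log2 fold change, and the median was 0.14. ENSSSCG00000043175, on chromosome 2 at 8919294 to 8922572, holds 8 snoRNA rows, among them SNORD22, SNORD26, SNORD27 and SNORD30. It had 821 and 891 counts with siYTHDF2 and 557 and 705 in the control (log2 fold change 0.50, SE 0.14, adjusted p = 0.0343), groups that did not overlap, and the call was lost without control replicate 1 and without siYTHDF2 replicate 1. ENSSSCG00000055817, on chromosome 3 at 39828755 to 39831713, holds SNORD60 and had 2033 and 2414 counts with siYTHDF2 and 1771 and 1971 in the control (0.30, SE 0.09, adjusted p = 0.0421). Its groups did not overlap either, and its call was lost in DESeq2, in limma, under the replicate block, without control replicate 1 and without either siYTHDF2 replicate.

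ENSSSCG00000059522, on chromosome 9 at 116145162 to 116147549, holds 7 snoRNA rows, SNORD79 and SNORD81 among them, and had 887 and 824 counts with siYTHDF2 and 657 and 826 in the control (log2 fold change 0.27, adjusted p = 0.253). ENSSSCG00000046461, on chromosome 12 at 59132520 to 59134630, holds SNORD49A, SNORD49B and SNORD65 and had 1203 and 1371 counts with siYTHDF2 and 1169 and 1178 in the control (0.19, adjusted p = 0.232). Neither passed the test. Of the 35 rows inside these host intervals 26 could be tested, and edgeR called none.

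The proteins that bind, process or degrade such RNAs are encoded by mRNAs, and 9 lists of them were counted in the same fit. Beside each count below stand 9.05% of all genes tested that were higher and 10.6% that were lower, or 11.9% and 13.3% of the protein-coding genes with the floor of 100 counts. Of 10 tested snoRNP proteins, which package and stabilize snoRNAs, 5 were higher and none lower, with a median log2 fold change of 0.31 against 0.0007 over all genes. The largest change of the list went the other way and did not pass. It was that of NOP10, with 1046 and 678 counts with siYTHDF2 and 1356 and 1685 in the control (-0.74, adjusted p = 0.0852). NOP58 was at -0.01 (adjusted p = 0.926). DKC1, the pseudouridine synthase of H/ACA particles, had 4422 and 4827 counts with siYTHDF2 and 3303 and 3770 in the control (0.45, adjusted p = 0.00507). SNU13, a core protein of C/D particles, had 0.43 (adjusted p = 0.00854) and FBL, their methyltransferase, had 0.35 (adjusted p = 0.0249), a call lost without control replicate 1 and without siYTHDF2 replicate 1. Of 9 proteins of RNase P and RNase MRP, 4 were higher and none lower (median 0.30), with POP7 at 0.51 (adjusted p = 0.00921) and RPP38 at 0.61 (adjusted p = 0.00973). The calls of DKC1, SNU13, FBL, POP7 and RPP38 were all lost in limma on log2(FPKM + 1).

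Of 14 subunits and cofactors of the nuclear RNA exosome, which trims and degrades nuclear RNA, 7 were higher and none lower (median 0.30), against 9.05% and 10.6% of all genes tested. ZCCHC8, the scaffold of the NEXT complex, had 2298 and 2525 counts with siYTHDF2 and 1627 and 1730 in the control (0.58, adjusted p = 0.00208). EXOSC2 had 0.60 (adjusted p = 0.00436) and EXOSC8 had 0.56 (adjusted p = 0.00998). In these 3 genes the groups did not overlap, and their calls were kept in limma.

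Of 14 spliceosomal snRNP proteins, 4 were higher and none lower (median 0.24), against 9.05% and 10.6% of all genes tested, with SNRPD1 at 0.45 (adjusted p = 0.0157), SNRPC at 0.34 (adjusted p = 0.0405) and SNRPE at 0.38 (adjusted p = 0.0417). The SNRPD1 call was lost without siYTHDF2 replicate 1, and the calls of SNRPC and SNRPE were lost without control replicate 1 and without siYTHDF2 replicate 1. Of 7 proteins of the 7SK particle and La, which hold or bind the elongation kinase and polymerase III transcripts, 3 were higher and none lower (median 0.17). These were CDK9 (0.45, adjusted p = 0.00305), HEXIM1 (0.34, adjusted p = 0.0137) and MEPCE (0.32, adjusted p = 0.0187). The HEXIM1 call was lost without control replicate 1 and without siYTHDF2 replicate 1, and that of MEPCE without control replicate 2 and without siYTHDF2 replicate 2. All 6 of these calls were lost in limma, and those of SNRPC and SNRPE also under the replicate block.

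None of the 6 signal recognition particle proteins and none of the 7 paraspeckle proteins passed edgeR's test, although 1 and 5 of them had an unadjusted p under 0.05 (medians 0.04 and 0.15). DESeq2 called none of the 6 and 1 of the 7, as higher, and limma called none. Of 8 microRNA processing proteins 1 was higher and 2 were lower (median -0.02), against 9.05% and 10.6% of all genes tested. XPO5, the exporter of precursor microRNAs, had 9711 and 11803 counts with siYTHDF2 and 18649 and 18070 in the control (-0.72, adjusted p = 0.000136). PRKRA, a partner of Dicer, had 813 and 895 counts with siYTHDF2 and 1432 and 1355 in the control (-0.65, adjusted p = 0.00341). AGO2 was higher by 0.37 (adjusted p = 0.0165), a call lost in limma and without siYTHDF2 replicate 2, and the nuclease genes DROSHA (-0.04, adjusted p = 0.80) and DICER1 (-0.003, adjusted p = 0.988) did not pass.

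Of 12 m6A writers, erasers and the nuclear reader, 3 were higher and 1 was lower (median 0.10), against 9.05% and 10.6% of all genes tested. METTL16, a methyltransferase of U6 snRNA, had 1458 and 1765 counts with siYTHDF2 and 1167 and 1111 in the control (0.55, adjusted p = 0.00582). FTO, a demethylase, had 1135 and 1429 counts with siYTHDF2 and 1662 and 1999 in the control (-0.46, adjusted p = 0.0196), a call lost without control replicate 2 and without siYTHDF2 replicate 1. RBM15B, an adaptor of the writer complex, had 0.33 (adjusted p = 0.0226), a call lost under the replicate block, without control replicate 1 and without either siYTHDF2 replicate. In limma METTL16 and RBM15B lost their calls and FTO did not.

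**Figure D5:**
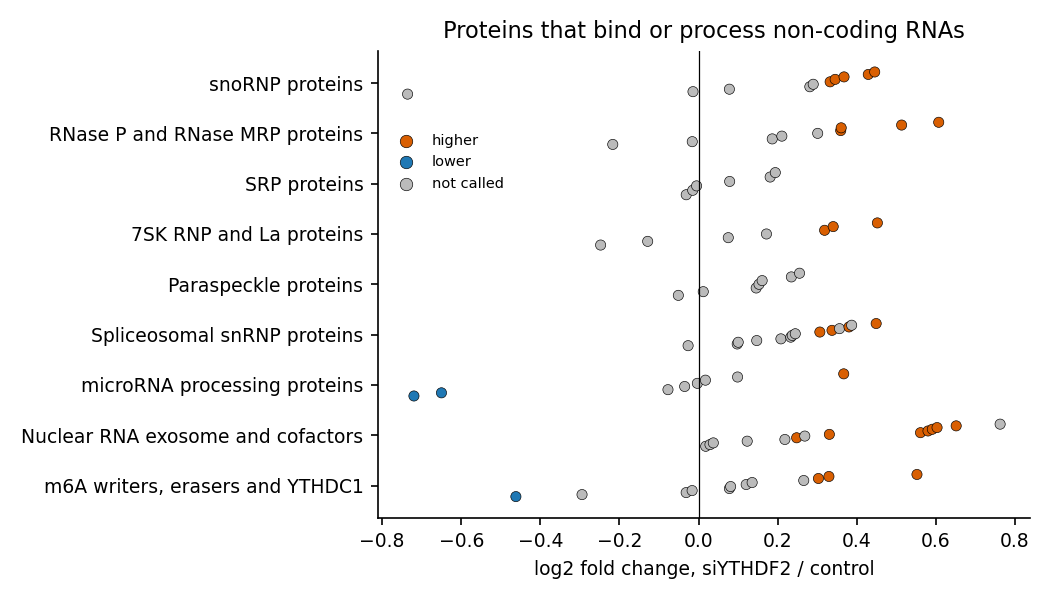
Log2 fold change of siYTHDF2 over control (x axis) for each tested gene of the 9 protein lists (rows), with called genes in colour. Each point is 1 gene; the called genes of the snoRNP, RNase P and exosome lists all lie above 0, and the microRNA processing list has called genes on both sides.

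The floor of 100 counts set the edge of the set. Just inside it were ENSSSCG00000052558, ENSSSCG00000060280, ENSSSCG00000003826, ENSSSCG00000062191 and NAP1L5, with smallest counts of 100 to 103. Just outside it were SNORD21, ENSSSCG00000042873, ENSSSCG00000048264, ENSSSCG00000053206 and ENSSSCG00000055934, each with a smallest count of 99. None of these 10 genes was called. A floor of 50 counts would hold 518 genes and a floor of 200 counts would hold 241.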

How the data were processed

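Counts and FPKM per library, with gene positions and a transcript type, were deposited for 20491 genes, per the file headers. Bowtie 0.12.2 and a mouse build stand in the submitters' processing notes, while the gene identifiers are those of the pig. The build, the annotation and the use of strand in counting are not given in the sources used here. Coordinates are those of the table, and of 12858 symbols shared with a table of Sscrofa11.1, 89.3% started within 5000 bases of the same place. Sequences were not used here, and 1 neighbouring gene is not reported here.

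All genes passing edgeR's expression filter (15552) entered edgeR 4.0.16 (R 4.3.3), run on the counts as deposited with TMM scaling and a two-sided, robust quasi-likelihood fit on group. Benjamini-Hochberg adjustment ran over all of them, with a threshold of 0.05. CPM values are TMM-scaled. Alternatives were DESeq2 1.42.0, other scalings, no filter, limma 3.58.1 on log2(FPKM + 1) from the deposited FPKM, a replicate block, another count floor, and leaving out each library. Each library counted as a sample, as the labels list them. Libraries of a group differed by a chi-square per degree of freedom of 14.8 with siYTHDF2 and 14.9 in the control, which does not show that they came from separate cultures.

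Named genes are the called genes whose groups did not overlap, by smallest p (up to 15 per direction), and those with a symbol. The 3 of highest FPKM per type, the 5 on each side of the count floor, their nearest protein-coding neighbours, and up to 3 genes per protein list were named too. Other genes named (pairs, snoRNA hosts, opposite neighbours, cell type markers) were chosen after their values were seen. The lists are 9 of RNA-binding and RNA-processing proteins and 7 of cell type markers (granulosa, stroma and theca, leukocyte, endothelial, epithelial, oocyte, retina). The genes and lists were chosen with earlier results of these data known.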

Additional observations from a re-analysis of the deposited data

How the results depend on the processing

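Counts below are given as higher and lower, first for the non-coding genes and then for all genes tested, where the main values are 25 and 48, and 1408 and 1644. DESeq2 called 20 and 40, and 1385 and 1532; median ratio scaling 24 and 48, and 1383 and 1639; no expression filter 27 and 58, and 1582 and 1853. Total count scaling moved the split to 33 and 44, and 1843 and 1457. In limma on log2(FPKM + 1) the counts were 10 and 46 of 264 genes tested, and 460 and 1251 of 11107. Leaving out each library in turn gave 10 to 19 higher and 39 to 46 lower non-coding genes, and 791 to 1287 higher and 1170 to 1436 lower genes in all. A floor of 50 counts gave 27 and 52, and a floor of 200 counts 19 and 38. The cause of these shifts was not tested.

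With the replicate number as a block the counts were 19 and 48, and 1020 and 1361. Deviations of same-numbered libraries from their group means correlated at -0.148 over 15552 genes. This single value, from 2 libraries per group, cannot show whether libraries with the same number shared a culture or batch. With the crossed pairing, chosen after seeing the data, the counts were 29 and 57, and 1946 and 1996.

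YTHDF2 stayed lower in every alternative, with log2 fold changes of -1.33 to -1.57. Over 1094 single-gene comparisons in these alternatives 943 kept their direction and side of the threshold, 114 lost and 4 gained the call, and 33 changed sign, all of genes that were not called. In limma the sign changed for HPS5 (-0.031), ENSSSCG00000057567 (-0.0083), PLRG1 (-0.043), ENSSSCG00000034253 (-0.046), SNORD24 (-0.045), ENSSSCG00000018225 (-0.076), HPS6 (-0.058) and ENSSSCG00000042682 (-0.0043). It also changed for TSHZ2 under total count scaling (0.020) and the replicate block (0.0053), for ENSSSCG00000018225 under the replicate block (-0.0058), and for HPS6 without the filter (-0.0013). Leaving out each library gave ranges of -0.24 to 0.054 for FAT1, -0.39 to 0.11 for AHDC1, -0.052 to 0.12 for HPS5, -0.11 to 0.22 for ENSSSCG00000057567, -0.031 to 0.069 for PLRG1, -0.15 to 0.20 for ENSSSCG00000034253, -0.12 to 0.16 for SNORD24, -0.26 to 0.27 for TSHZ2, -0.28 to 0.25 for ENSSSCG00000018225, -0.074 to 0.081 for HPS6, -0.017 to 0.29 for ENSSSCG00000045200, -0.063 to 0.23 for ENSSSCG00000044841, -0.36 to 0.33 for ENSSSCG00000045735, -0.17 to 0.37 for ENSSSCG00000048556, -0.37 to 0.19 for ENSSSCG00000057006 and -0.033 to 0.21 for ENSSSCG00000061321. With 2 libraries per group, low counts and rows that overlap on opposite strands limit what can be read from single genes.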

Other observations

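Below the floor of 100 counts lay 4070 further non-coding rows, of which 1358 could be tested, and 19 were higher and 18 lower (2.72% called). Rows of polymerase III transcripts were among them. The row of RNaseP_nuc, the RNA of RNase P, on chromosome 7 at 78551527 to 78551853 had 54 and 52 counts with siYTHDF2 and 0 and 8 in the control (adjusted p = 0.0319 in edgeR's quasi-likelihood test). Of 2 rows of Metazoa_SRP, the signal recognition particle RNA, on chromosome 1, 1 had 142 and 58 counts with siYTHDF2 and 6 and 7 in the control (adjusted p = 0.00286), and the other had 143 and 58 counts with siYTHDF2 and 4 and 10 in the control (adjusted p = 0.00429). The signal recognition particle RNA comes from a family of near-identical copies, so reads of its copies cannot be told apart. The RNaseP_nuc row rests on low counts.

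Across the table, 283 rows were snoRNAs, of which 130 could be tested. None was called by edgeR and none had an unadjusted p under 0.05, and DESeq2 called none of the 283. In limma on the log2(FPKM + 1) scale, 19 of 153 tested were higher and 16 were lower. Over all 11107 genes tested in limma, 460 were higher and 1251 were lower. In edgeR there were 84 positive and 46 negative log2 fold changes, with a median of 0.12. Their median SE was 0.71 on the log2 scale, so differences of that size were not detectable at this depth.

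Among lncRNAs under the floor, ENSSSCG00000052618 on chromosome 2 at 150578808 to 150581711 had 112 and 92 counts with siYTHDF2 and 356 and 384 in the control (log2 fold change -1.79, SE 0.23, adjusted p = 0.001). ENSSSCG00000047186 on chromosome X at 82031368 to 82035628 had 17 and 43 counts with siYTHDF2 and 140 and 111 in the control (log2 fold change -2.03, SE 0.43, adjusted p = 0.0114).

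Of the remaining marker lists, 1 of 4 tested endothelial markers was higher (VWF, 24 and 30 counts with siYTHDF2 and 0 and 0 in the control) and 1 of 4 tested epithelial markers was lower (CLDN4, 0 and 0 counts with siYTHDF2 and 11 and 15 in the control). None of 2 oocyte markers, 5 leukocyte markers and 1 retina marker tested was called by edgeR, DESeq2 or limma, with 0, 1 and 0 in edgeR at an unadjusted p under 0.05.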
